A study of Mus musculus with 5 samples.

Results

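The genes described here are the 2 subunits of ferritin and 8 further genes of cellular iron handling, compared between 2 Krt6a+ and 3 WAP+ libraries. They were chosen by symbol (Fth1, Ftl1, Tfrc, Trf, Slc11a2, Slc40a1, Ireb2, Aco1, Heph and Ncoa4), and all 10 were present among the 24347 symbols of the tables, in 17 transcript rows. The cells of all libraries were taken from mammary precancerous lesions of mice carrying the MMTV-Wnt-1 transgene, in which the MMTV promoter drives Wnt-1 in the mammary epithelium, on a background mixing FVB, SJL and C57BL/6. Krt6a+ libraries (numbered 2 and 3) are labelled keratin 6a positive precancerous stem cells, and WAP+ libraries (numbered 1 to 3) are named for the whey acidic protein of milk. Each library was made from a small sorted pool of cells, taken with an antibody to the viral receptor TVA. How TVA marked each population, the age of the mice, any treatment, and whether pools came from separate animals are not stated. The p-values therefore measure only the spread between these libraries, which may be technical.

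Iron is stored in cells inside a hollow shell built from ferritin heavy (Fth1) and light (Ftl1) chains. The heavy chain oxidises iron on entry, the light chain favours its mineralisation, and Ncoa4 carries ferritin to the lysosome for release. Iron enters bound to transferrin (Trf) through the transferrin receptor (Tfrc), crosses the endosomal membrane through Slc11a2 (DMT1) and leaves through ferroportin (Slc40a1), helped by the ferroxidase hephaestin (Heph). When iron is scarce, the regulatory proteins IRP1 (Aco1, an aconitase when iron-replete) and IRP2 (Ireb2) bind iron-responsive elements, short hairpins in untranslated regions. Binding near the 5′ end blocks translation of ferritin and ferroportin mRNA, and binding in the 3′ untranslated region stabilises Tfrc mRNA. Transferrin is also secreted by the mammary epithelium into milk.

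The hairpins themselves are shown because they are the known site of control by the regulatory proteins, and because the Slc11a2 transcripts differ in carrying one. They were found in GENCODE M21 transcripts (GRCm38, the same assembly as mm10) as a bulged C, a 5-base stem, the loop CAGTGN and a fully paired second arm (G-U pairs allowed), read on the transcript strand. Capitals mark the bulged C and the loop, the name gives the position, and each is written 5′ to 3′ in DNA letters.
Fth1, 5′ untranslated region, chr19:9982732-9982760, plus strand: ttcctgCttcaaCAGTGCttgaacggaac
Ftl1, 5′ untranslated region, chr7:45459779-45459807, minus strand: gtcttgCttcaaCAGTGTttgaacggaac
Slc40a1, 5′ untranslated region, chr1:45925465-45925493, minus strand: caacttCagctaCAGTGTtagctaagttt
Tfrc, 3′ untranslated region, site 1 of 4, chr16:32631219-32631247, plus strand: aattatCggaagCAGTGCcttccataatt
Tfrc, 3′ untranslated region, site 2 of 4, chr16:32631598-32631626, plus strand: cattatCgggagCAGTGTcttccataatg
Tfrc, 3′ untranslated region, site 3 of 4, chr16:32631663-32631691, plus strand: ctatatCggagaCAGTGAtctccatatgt
Tfrc, 3′ untranslated region, site 4 of 4, chr16:32631710-32631738, plus strand: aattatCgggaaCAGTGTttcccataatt
Slc11a2 (NM_001146161), 3′ untranslated region, chr15:100395152-100395181, minus strand: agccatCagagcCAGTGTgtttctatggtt

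The ferritin, ferroportin and Tfrc sites lie in exon 1 of Fth1, Ftl1 and Slc40a1 and in exon 19 of Tfrc. The Slc11a2 site, in exon 16, matched only when 1 extra unpaired base was allowed in the second arm. No hairpin of either form was found in the other Slc11a2 transcript, NM_008732, or in Trf, Ireb2, Aco1, Heph and Ncoa4. Of 20899 genes with an annotated 5′ untranslated region 0.148% held the fully paired form there, and of 21022 with a 3′ untranslated region 0.614% did. The form with an extra base occurred in 0.239% and 1.11%. Untranslated regions differ in length, and a match is a sequence description, not a measurement of binding.

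Levels are in FPKM, a unit that corrects fragment numbers for transcript length and library size, so they may be compared roughly between genes. Trends of values with transcript length remained between libraries, and removing them changed some differences, as given below. The libraries held 8112 to 8900 genes at FPKM 1 or more. Read totals were not used here, but the widths of the deposited 95% intervals corresponded to about 4280000 to 6030000 fragments per library. Krt6a had FPKM 1133 to 1380 in Krt6a+ and 50.0 to 168 in WAP+ libraries, and Wap had 13.9 to 126 in WAP+ and was listed at 0 in Krt6a+ libraries. Of 9 luminal genes, only Pgr was listed at 0 throughout. Their summed FPKM was 1425 and 3790 in Krt6a+ libraries 2 and 3, and 7906 to 9030 in WAP+ libraries. Most of it came from Krt8, Krt18, Krt19 and Epcam. Each was higher in every WAP+ library, but none passed the threshold (limma, adjusted p = 0.0607 for Krt18 to 0.195 for Epcam). Cdh1 overlapped between the groups (limma, adjusted p = 0.545), and Esr1, near 0 in all libraries, was highest in Krt6a+ library 2, at 0.588. Of 11 macrophage markers, 8 were listed at 0 in all libraries, among them Ptprc, Adgre1, Mrc1 and Lyz2, and the sum was 14.5 to 20.2 in Krt6a+ and 10.1 to 26.4 in WAP+ libraries. Cd68 made up most of this sum except in Krt6a+ library 2, and overlapped between the groups (limma, adjusted p = 0.647). C1qb stood at 8.00 and 2.43 for the Krt6a+ pools but was listed at 0 for every WAP+ pool (limma, log2 2.43 ± 0.66 SE, adjusted p = 0.124). It was thus tested through its Krt6a+ values alone. Csf1r was above 0 in WAP+ library 1 alone, at 1.03. Of 8 erythroid markers, 6 were listed at 0 throughout, all 5 globin genes among them, with a sum of at most 1.22. Summed FPKM of basal markers was 2931 to 3343 in Krt6a+ and 226 to 1315 in WAP+ libraries, most of it from keratins. Krt5 was higher in Krt6a+ libraries, at 434 and 374 against 13.4 to 34.7 (limma, log2 4.02 ± 0.49 SE, adjusted p = 0.0275). Krt14 and Trp63 were also above the WAP+ range without passing (limma, adjusted p = 0.209 and 0.228), and Krt17 overlapped. The basal marker Acta2 was at 0.658 and 0.398 in Krt6a+ and 8.35 to 25.2 in WAP+ libraries (limma, log2 -3.64 ± 0.67 SE, adjusted p = 0.0547). It was tested through its WAP+ values alone. Myh11, another basal marker, was at 0.0270 and 0.0296 in Krt6a+ and 0.540 to 1.23 in WAP+ libraries, too low to be tested. The sum for fibroblast markers was 57.5 to 210.1 in Krt6a+ and 8.60 to 84.2 in WAP+ libraries, and for endothelial markers 0.0902 to 0.744 and 0.0349 to 23.5. Most of the fibroblast sum came from Dcn, which overlapped between the groups (limma, log2 2.08 ± 0.91 SE, adjusted p = 0.296). Col1a1, Col1a2 and Col3a1 were listed at 0 for Krt6a+ library 3 and had FPKM 2.33, 6.66 and 6.00 for WAP+ library 3. For Krt6a+ library 2 they had 2.44, 4.12 and 1.51, so these genes overlapped as well. Neutrophil and adipocyte markers summed to 0 in Krt6a+ libraries and to 10.4 to 116.1 and 20.3 to 2207 in WAP+ libraries, with 5 of 7 and 4 of 6 at 0 throughout. Nearly all of the neutrophil sum was S100a9, at 10.6, 9.81 and 116.1 in WAP+ libraries 1 to 3. Nearly all of the adipocyte sum was Fabp4, at 2188, 65.8 and 20.3, while Pparg was above 0 in WAP+ library 1 alone, at 18.6. The part of these cell types in the results was not tested. An exact 0 can be a failed estimate in these tables, since Eno1, a housekeeping gene, was listed at 0 in all 5 libraries.

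**Figure D1:**
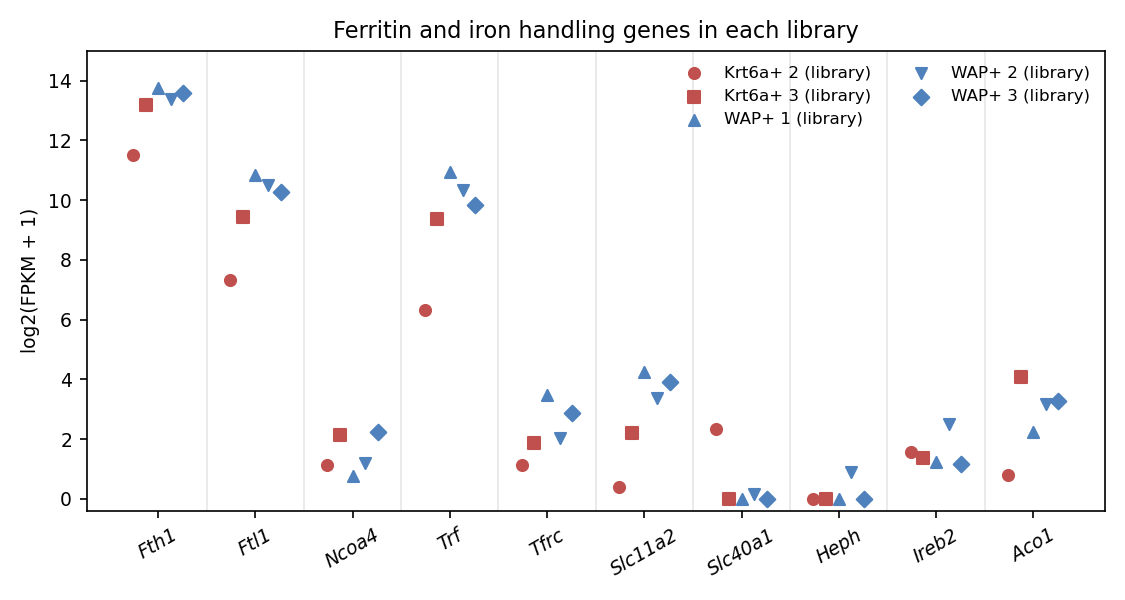
Level of each of the 10 genes in every library, as log2(FPKM + 1) on the vertical axis, with Krt6a+ libraries in red and WAP+ libraries in blue. For Fth1, Ftl1, Trf, Tfrc and Slc11a2 all 3 WAP+ points lie above both Krt6a+ points, and Krt6a+ library 2 is the lowest.

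Ferritin mRNA was abundant in every library and higher in all 3 WAP+ libraries than in either Krt6a+ library. Fth1 (NM_010239, chromosome 19 from 9982646 to 9985111) stood at FPKM 2909 and 9214 in the Krt6a+ pools, with 13782, 10582 and 12369.9 in the WAP+ pools 1 to 3. It was the 18th and 5th most abundant gene in the Krt6a+ libraries, and the 3rd, 5th and 3rd in the WAP+ libraries. Krt6a+ library 2 stood well below the other 4, while Krt6a+ library 3 lay just under WAP+ library 2 before scaling. After scaling, the mean of the Krt6a+ pools was 5568 ± 3676 (SD, n = 2) and that of the WAP+ pools 12632 ± 1343 (SD, n = 3), 2.56-fold apart on the log2(FPKM + 1) scale, a difference short of the threshold (limma, log2 -1.35 ± 0.48 SE, adjusted p = 0.206). Leaving out Krt6a+ library 2, the log2 difference was -0.62, and it was -2.08 without Krt6a+ library 3. With the trend of values with transcript length removed it was -0.73 (the Fth1 transcript has 942 bases). The other Fth1 row, the non-coding NR_073181, was listed at 0 in all libraries. In bulk pools, fewer cells that express a gene and less of its RNA per cell cannot be told apart.

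Ftl1 (NM_010240, chromosome 7 from 45457944 to 45459886) had FPKM 161 and 696 in Krt6a+ libraries, and 1820 (WAP+ library 1), 1462 and 1232 in WAP+ libraries. The groups did not overlap, and the lowest WAP+ value was well above the higher Krt6a+ value. After scaling, the mean of the Krt6a+ pools was 391 ± 320 (SD, n = 2) and that of the WAP+ pools 1539 ± 111 (SD, n = 3), so the Krt6a+ libraries varied more than the WAP+ libraries. The difference was 4.80-fold, with a 95% interval on the log2 scale from -3.51 to -1.02, and did not pass over all genes (limma, log2 -2.26 ± 0.54 SE, adjusted p = 0.0982). It passed when only genes above 0 in all libraries were tested (adjusted p = 0.0474) and without Krt6a+ library 3 (log2 -3.21, adjusted p = 0.0133), where 1 Krt6a+ library remained and its spread was assumed. Without Krt6a+ library 2 it was -1.31, with quantile normalization -1.60 and with the length trend removed -1.66. Ferritin has 5 named pseudogenes in RefSeq, none of them a row of the tables, so how reads shared with such copies were assigned is uncertain. The deposited interval of Fth1 (13197 to 14368 in WAP+ library 1) was wider than counting error alone: its width corresponded to a fraction of 0.0373 to 0.117 of the fragments that its FPKM implies, against 0.6 to 0.732 for Ftl1.

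The log2 difference was -2.26 for the light chain and -1.35 for the heavy chain, and whether they differ was not tested. The ratio of Fth1 to Ftl1 FPKM within a library, which no scaling factor can change, came to 18.04 and 13.2 for the Krt6a+ pools, as opposed to 7.57, 7.24 and 10.04 for the WAP+ pools. Both Krt6a+ ratios lay above all 3 WAP+ ratios. With 10 ways to split the libraries, the smallest p of an exact permutation test would be 0.1, and no p is given for this ratio. Together the 2 chains made up 0.796% and 2.38% of all FPKM in the Krt6a+ pools and 2.99%, 2.33% and 3.24% in the WAP+ pools, where Krt6a+ library 3 lay inside the WAP+ range.

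Ferritin was also set against Krt18 and Epcam of the same library, and the pattern depended on the gene used. Krt18, a luminal keratin, stood at FPKM 353 and 1283 in the Krt6a+ pools, with 4018, 3335 and 3534 in the WAP+ pools. The ratio of Ftl1 to Krt18 came to 0.456 and 0.543 for the Krt6a+ pools, as opposed to 0.453, 0.438 and 0.349 for the WAP+ pools, so the gap between the groups was small and in the opposite direction to that of Ftl1 itself. For Fth1 the ratio to Krt18 was 8.23 and 7.18 against 3.43, 3.17 and 3.50, higher in both Krt6a+ libraries. Relative to Epcam, an epithelial adhesion gene, Fth1 was at 5.30 and 10.1 in the Krt6a+ pools, with 9.79, 9.55 and 8.28 in the WAP+ pools, which overlapped, and Ftl1 at 0.294 and 0.767 against 1.29, 1.32 and 0.825, which did not. Krt18 and Epcam were picked for these ratios after their values were seen. The part of the luminal content in the ferritin difference was not tested.

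**Figure D2:**
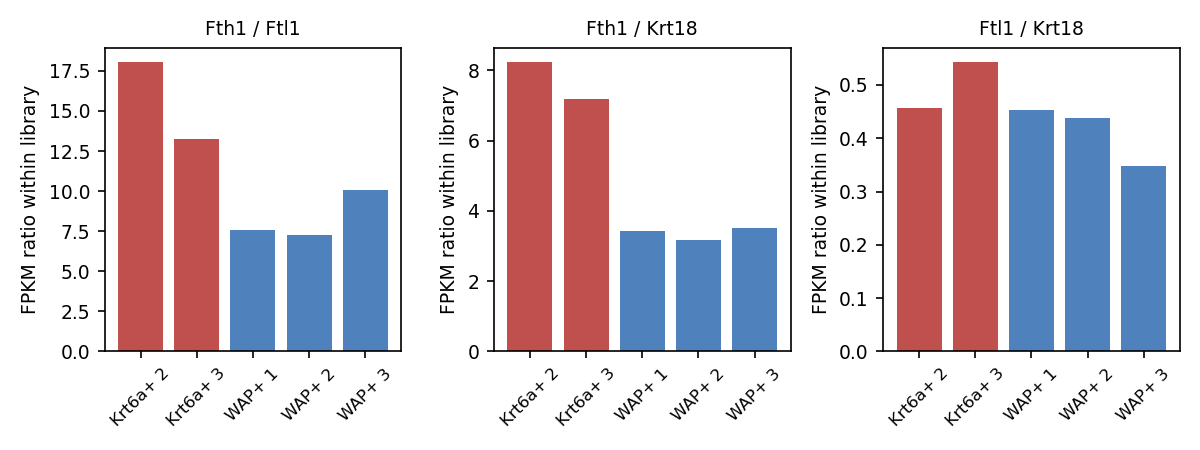
Ratios of FPKM within each library (vertical axes start at 0), for Fth1 to Ftl1, Fth1 to Krt18 and Ftl1 to Krt18, with Krt6a+ libraries in red and WAP+ libraries in blue. Both ratios with Fth1 as numerator are higher in the 2 Krt6a+ libraries, whereas Ftl1 to Krt18 runs from 0.349 to 0.543 over all 5.

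Ncoa4, the cargo receptor that delivers ferritin to lysosomes, stood at FPKM 1.19 and 3.38 in the Krt6a+ pools, with 0.715, 1.30 and 3.73 in the WAP+ pools. The groups overlapped throughout, and the log2 difference was 0.11 ± 0.75 SE (limma, adjusted p = 0.967), with a 95% interval from -1.62 to 1.84. At this level a library held few fragments of the gene, about 15 in WAP+ library 1 and 118 in WAP+ library 3 by the widths of the intervals. Of its 3 transcripts, NM_019744 was above 0 in all libraries. NM_001033988 was above 0 in Krt6a+ library 3 alone, at FPKM 2.62.

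Of the uptake genes, transferrin itself was the most abundant. Trf (NM_133977, chromosome 9 from 103208876 to 103230286) stood at FPKM 78.3 and 653 in the Krt6a+ pools, with 1964, 1289 and 915 in the WAP+ pools. The WAP+ values were all higher, and before scaling Krt6a+ library 3 was 8.35 times library 2 and not far under WAP+ library 3. After scaling, the mean of the Krt6a+ pools was 330 ± 353 (SD, n = 2) and that of the WAP+ pools 1397 ± 338 (SD, n = 3), 6.32-fold apart on the log2(FPKM + 1) scale, a difference short of the threshold (limma, log2 -2.66 ± 0.74 SE, adjusted p = 0.129). Leaving out Krt6a+ library 3, it was -4.07 and passed (adjusted p = 0.00818), again with 1 Krt6a+ library remaining, and without library 2 it was -1.23 (adjusted p = 0.251). The ratio of Trf to Krt18 came to 0.222 and 0.509 for the Krt6a+ pools, as opposed to 0.489, 0.387 and 0.259 for the WAP+ pools, which overlapped.

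Tfrc, the receptor that takes up iron-loaded transferrin, was low in every library. It stood at FPKM 1.18 and 2.70 in the Krt6a+ pools, with 10.2, 3.10 and 6.30 in the WAP+ pools (NM_011638, chromosome 16 from 32608896 to 32632794). The groups did not overlap, but before scaling WAP+ library 2 lay close to Krt6a+ library 3, and their deposited intervals, 2.53 to 3.66 and 1.96 to 3.44, did overlap. The difference fell short of the threshold (limma, log2 -1.38 ± 0.68 SE, adjusted p = 0.352), and its 95% interval, -2.96 to 0.20, included 0. The pseudocount moved it from -1.77 at 0.1 to -0.73 at 5. The ratio of Fth1 to Tfrc came to 2458 and 3414 for the Krt6a+ pools, as opposed to 1354, 3417 and 1964 for the WAP+ pools, and the groups overlapped.

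Slc11a2, the DMT1 transporter that moves iron out of the endosome, was also higher in every WAP+ library. Its summed FPKM came to 0.326 and 3.66 for the Krt6a+ pools, as opposed to 18.1, 9.31 and 14.2 for the WAP+ pools. The lowest WAP+ value was well above the higher Krt6a+ value, and Krt6a+ library 2 was near the level of about 10 fragments. After scaling, the mean of the Krt6a+ pools was 1.79 ± 2.06 (SD, n = 2) and that of the WAP+ pools 14.1 ± 3.38 (SD, n = 3), 6.25-fold apart on the log2(FPKM + 1) scale, a difference short of the threshold (limma, log2 -2.64 ± 0.70 SE, adjusted p = 0.118). Its log2 difference was -3.54 with a pseudocount of 0.1, -1.51 with a pseudocount of 5, and -1.81 and -3.45 without Krt6a+ library 2 and 3.

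The WAP+ signal of Slc11a2 came mainly from the transcript with no hairpin. NM_008732 (chromosome 15 from 100387900 to 100423055) had FPKM 18.1, 9.31 and 10.5 in WAP+ libraries, 2.62 in Krt6a+ library 3 and was listed at 0 in Krt6a+ library 2. NM_001146161, the transcript with the hairpin printed above, was listed at 0 in WAP+ libraries 1 and 2 and had FPKM 3.71 in WAP+ library 3, 1.03 in Krt6a+ library 3 and 0.326 in Krt6a+ library 2. NM_008732 thus held 100% of Slc11a2 FPKM in WAP+ libraries 1 and 2, 73.9% in WAP+ library 3 and 71.8% in Krt6a+ library 3. The transcripts overlap in the genome, so these shares rest on the estimate of the split, and a transcript listed at 0 can be a failed estimate. No test was made of the share.

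**Figure D3:**
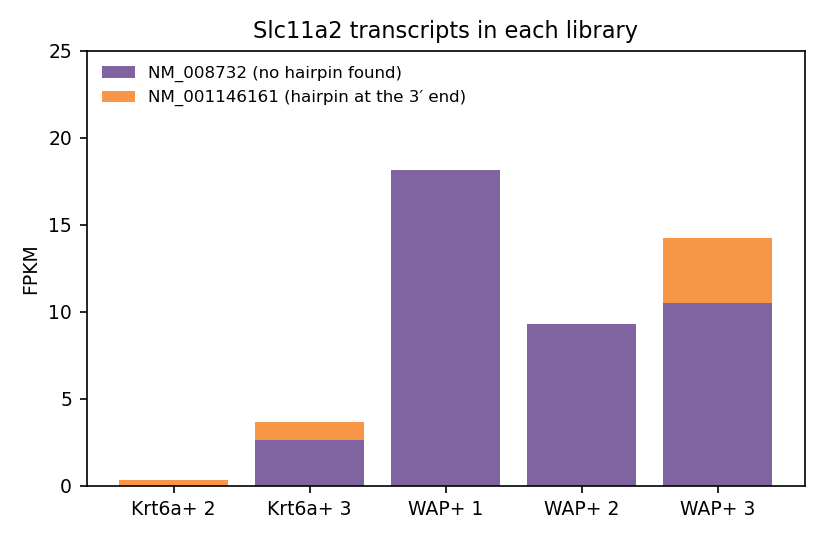
FPKM of the 2 Slc11a2 transcripts, stacked, in each library. NM_008732 makes up all of the bar in WAP+ libraries 1 and 2 and most of it in WAP+ library 3 and Krt6a+ library 3, while the bar of Krt6a+ library 2 is 0.326 in all.

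The export genes were hardly detected. Slc40a1, ferroportin, had FPKM 4.10 in Krt6a+ library 2 (deposited interval 3.26 to 4.94), 0.110 in WAP+ library 2 and was listed at 0 in the other 3 libraries. Its presence in Krt6a+ library 2 was thus not shared by the other Krt6a+ library. Heph, hephaestin, had FPKM 0.877 in WAP+ library 2, all from NM_001159627, and its 4 rows were listed at 0 in the remaining libraries. Neither gene reached FPKM 1 in 2 libraries, so neither was tested.

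The iron sensors showed no difference larger than the spread. Ireb2 (IRP2) stood at FPKM 1.97 and 1.56 in the Krt6a+ pools, with 1.34, 4.71 and 1.27 in the WAP+ pools, with WAP+ library 2 apart from 4 similar values (limma, log2 -0.26 ± 0.72 SE, adjusted p = 0.8996). Aco1 (IRP1) had the widest gap between Krt6a+ libraries of any tested member, FPKM 0.736 and 16.1, with 3.72, 8.10 and 8.74 in WAP+ libraries between them. Its log2 difference was -0.58 ± 0.98 SE (limma, adjusted p = 0.823), and was -2.12 without Krt6a+ library 3 and 0.99 without library 2.

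Across the members, 8 of 10 were tested, each at FPKM 1 or more in at least 4 libraries, and Slc40a1 and Heph were not. None passed in either direction at an adjusted p under 0.05 (limma). Of all 9682 genes 0.692% passed, 0.434% lower and 0.258% higher in Krt6a+ libraries. Before adjustment, at p under 0.05, Fth1, Ftl1, Trf and Slc11a2 were on the lower side, 4 of 8, beside 9.45% of all genes, and no member was on the higher side, beside 7.66%. In 5 of 8, those 4 and Tfrc, every WAP+ library lay above every Krt6a+ library, beside 17.4% of all genes. The median log2 difference of the 8 was -1.37, against -0.01 over all genes. Without Krt6a+ library 3 the median was -2.10 and 2 members passed, Ftl1 and Trf, in a fit where 103 of 9057 genes were called lower, against 42 of 9682 with all libraries. Without Krt6a+ library 2 the median was -0.84 and 0 members passed, with 56 of 9141 genes called lower.

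**Figure D4:**
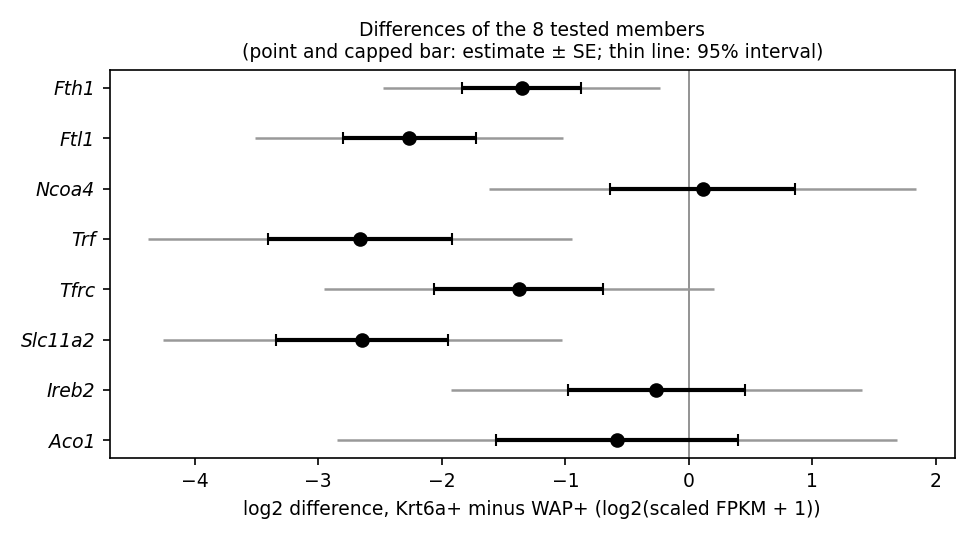
Log2 difference, Krt6a+ minus WAP+, of the 8 tested members (horizontal axis, log2(scaled FPKM + 1)), with the moderated SE as capped bars and the 95% interval as thin lines. The intervals of Fth1, Ftl1, Trf and Slc11a2 lie below 0, before any adjustment over genes, and those of Ncoa4, Tfrc, Ireb2 and Aco1 include it.

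The genes closest in pattern, by the distance between centred log2 values over the 5 libraries, were Bud31, Fkbp1a and Lemd2 for Fth1 (distances 0.148, 0.220 and 0.240, where the median gene was at 2.37). For Tfrc they were Patl1, Trib3 and Scaf4, at 0.222 to 0.321, and for Trf they were Bex1, Ifi35 and Leo1, at 0.461 to 0.602. Bud31, for example, stood at FPKM 64.1 and 220 in the Krt6a+ pools, with 313, 268 and 285 in the WAP+ pools, low in Krt6a+ library 2 as Fth1 was.

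Beyond these 10 genes, 97 of 99 further iron genes in 7 lists by role were present and 78 were tested. Of these, 3 were lower in Krt6a+ libraries, Lcn2, Hp and Bola3, and 0 were higher at an adjusted p under 0.05 (limma). The share of all genes called lower was 0.434%. Before adjustment, 10 of 78 were on the lower and 2 on the higher side, beside 9.45% and 7.66% of all genes. The median log2 difference was -0.24.

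Bola3, which passes iron-sulfur clusters to mitochondrial enzymes, was lower in Krt6a+ libraries. It had FPKM 0.639 and 0.635 there and 52.9, 85.2 and 15.5 in WAP+ libraries, with no overlap and a spread of several-fold among WAP+ libraries. Both Krt6a+ values lay under the filter minimum of FPKM 1, so Bola3 was tested through its WAP+ values alone. The difference was 27.2-fold on the log2(FPKM + 1) scale (limma, log2 -4.77 ± 0.73 SE, adjusted p = 0.0447), and the call sat close to the threshold. Its call was lost without any single WAP+ library (adjusted p = 0.138, 0.202 and 0.102 without library 1, 2 and 3) and without Krt6a+ library 2 (0.0564). Removing the length trend also ended it, at a log2 difference of -3.60 (adjusted p = 0.0560). So did a replicate block (0.0737), testing unfiltered genes (0.164), a constant prior variance (0.0637) and pseudocounts of 0.1 and 5 (0.0556 and 0.0575). Of the 22 tested iron-sulfur assembly genes the other 21 did not pass, and the median was -0.47. Of all 22, 3 were lower at an unadjusted p under 0.05, Bola3, Glrx5 and Nubp1, beside 9.45% of all genes. Glrx5, the mitochondrial glutaredoxin that works with Bola3, had FPKM 70.8 and 74.7 against 136, 188 and 225 (limma, log2 -1.41 ± 0.42 SE, adjusted p = 0.150). Nubp1, a scaffold for cytosolic clusters, had 0.231 and 11.8 against 21.9, 19.4 and 9.68, with Krt6a+ library 3 inside the WAP+ range of deposited FPKM (limma, log2 -2.23 ± 0.93 SE, adjusted p = 0.274). Leaving out Krt6a+ library 3, it was -3.80 and passed (adjusted p = 0.0457), whereas without library 2 it was -0.61 (adjusted p = 0.669).

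Of the secreted proteins that bind iron or haemoglobin, Lcn2 and Hp were lower in Krt6a+ libraries. Lcn2, which traps bacterial siderophores with their iron, stood at FPKM 757 and 462 in the Krt6a+ pools, with 13525, 9151 and 8197 in the WAP+ pools (limma, log2 -4.20 ± 0.39 SE, adjusted p = 0.00942). Hp, haptoglobin, which binds free haemoglobin, had 7.95 and 13.1 against 850, 737 and 408 (limma, log2 -5.94 ± 0.40 SE, adjusted p = 0.000954). Without WAP+ library 1, 2 or 3 Lcn2 did not pass (adjusted p = 0.0901, 0.109 and 0.102), nor among unfiltered genes (0.116) or under a constant prior variance (0.0524). Ltf, lactoferrin, the iron-binding protein of milk and mucosal secretions, was on the other side, at 420 and 320 in the Krt6a+ pools, with 117, 44.5 and 80.0 in the WAP+ pools, short of the threshold (limma, log2 2.16 ± 0.44 SE, adjusted p = 0.0685). It passed with a stricter filter (0.0493) and with genes above 0 in all libraries (0.0344). Of 6 tested genes of this list 2 passed, both lower, beside 0.434% of all genes, and the median was -1.31. At an unadjusted p under 0.05, 2 were lower and 1 higher, beside 9.45% and 7.66% of all genes.

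Of the other iron entry genes, Steap4 and Slc39a14 had higher values in all 3 WAP+ libraries, without passing. Steap4, a ferrireductase, stood at FPKM 0.598 and 0.0629 in the Krt6a+ pools, with 6.70, 4.91 and 6.93 in the WAP+ pools (limma, log2 -2.49 ± 0.64 SE, adjusted p = 0.113). Both Krt6a+ values lay under the filter minimum of FPKM 1, so Steap4 was tested through its WAP+ values alone. Slc39a14 (ZIP14), an importer of iron and zinc, had 1.22 and 17.8 against 37.3, 20.6 and 28.03, again with Krt6a+ library 2 lowest (limma, log2 -2.28 ± 0.82 SE, adjusted p = 0.208). Leaving out Krt6a+ library 3, it was -3.71 and passed (adjusted p = 0.0313), whereas without library 2 it was -0.83 (adjusted p = 0.528). Steap1 was above 0 in WAP+ libraries 2 and 3 alone, at 6.61 and 10.9. Of 7 tested import genes 0 passed, with 2 lower and 0 higher at an unadjusted p under 0.05 (9.45% and 7.66% of all genes), and the median was -0.76. Mcoln1, a lysosomal channel that releases iron, was above all WAP+ libraries (7.04 and 20.4 against 1.93, 4.87 and 5.81) and was named after its values were seen.

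Among 5 tested export, storage and chaperone genes 0 passed, 2 were lower at an unadjusted p under 0.05 (9.45% of all genes) and the median was -0.18. Cp, ceruloplasmin, a ferroxidase related to Heph, stood at FPKM 15.3 and 12.4 in the Krt6a+ pools, with 40.8, 45.9 and 18.9 in the WAP+ pools (limma, log2 -1.31 ± 0.51 SE, adjusted p = 0.241). Pcbp2, an iron chaperone that can load ferritin, had 7.30 and 26.8 against 55.6, 35.9 and 23.0 (limma, log2 -1.39 ± 0.58 SE, adjusted p = 0.274), with Krt6a+ library 3 above WAP+ library 3 before scaling. Pcbp3 overlapped between the groups, at 0.735 and 4.55 against 1.81, 0 and 2.45. Ftmt, the mitochondrial ferritin, was listed at 0 in all libraries.

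Of 10 tested genes of iron sensing 0 passed, beside 0.692% of all genes, and the median was 0.38. At an unadjusted p under 0.05 there were 0 on either side, beside 9.45% of all genes lower and 7.66% higher. Fbxl5, which targets IRP2 for degradation, stood at FPKM 5.65 and 17.9 in the Krt6a+ pools, with 41.2, 13.1 and 17.9 in the WAP+ pools, which overlapped. Hif1a, the hypoxia factor, had 10.4 and 16.5 against 7.40, 1.40 and 4.52, and Usp38 had 4.82 and 6.68 against 3.15, 0.414 and 2.69, both above the WAP+ range without passing (limma, adjusted p = 0.325 and 0.450). In 3 of the 10 every Krt6a+ library lay above every WAP+ library, beside 17.4% of all genes.

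Of 16 tested haem genes 0 passed, with 1 higher and 1 lower at an unadjusted p under 0.05 (7.66% and 9.45% of all genes) and a median of -0.35. Alas1, the first enzyme of haem synthesis, stood at FPKM 21.1 and 29.6 in the Krt6a+ pools, with 9.11, 6.01 and 8.24 in the WAP+ pools (limma, log2 1.47 ± 0.49 SE, adjusted p = 0.183). Blvra, a biliverdin reductase of haem breakdown, had 0.177 and 2.07 against 6.01, 7.799 and 12.1 (limma, log2 -2.40 ± 0.73 SE, adjusted p = 0.156), and Abcg2, a transporter that can export porphyrins, had 1.48 and 1.61 against 8.23, 8.40 and 1.69. Hmox1, the inducible haem oxygenase, named after its values were seen, had 896 in WAP+ library 1 and 86.5 to 177 in the other 4 libraries.

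Lipid peroxidation is the reaction through which iron excess can kill cells. Of 12 tested genes that act in it or guard against it 0 passed, beside 0.692% of all genes, and the median was 0.13. At an unadjusted p under 0.05 there were 0, beside 9.45% of all genes lower and 7.66% higher. Gpx4, the lipid hydroperoxidase, stood at FPKM 62.7 and 5.94 in the Krt6a+ pools, with 74.8, 62.9 and 24.0 in the WAP+ pools, with Krt6a+ library 3 lowest. Alox12 and Gch1 had log2 differences of 1.43 and 0.59 that did not pass (limma, adjusted p = 0.406 and 0.527).

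**Figure D5:**
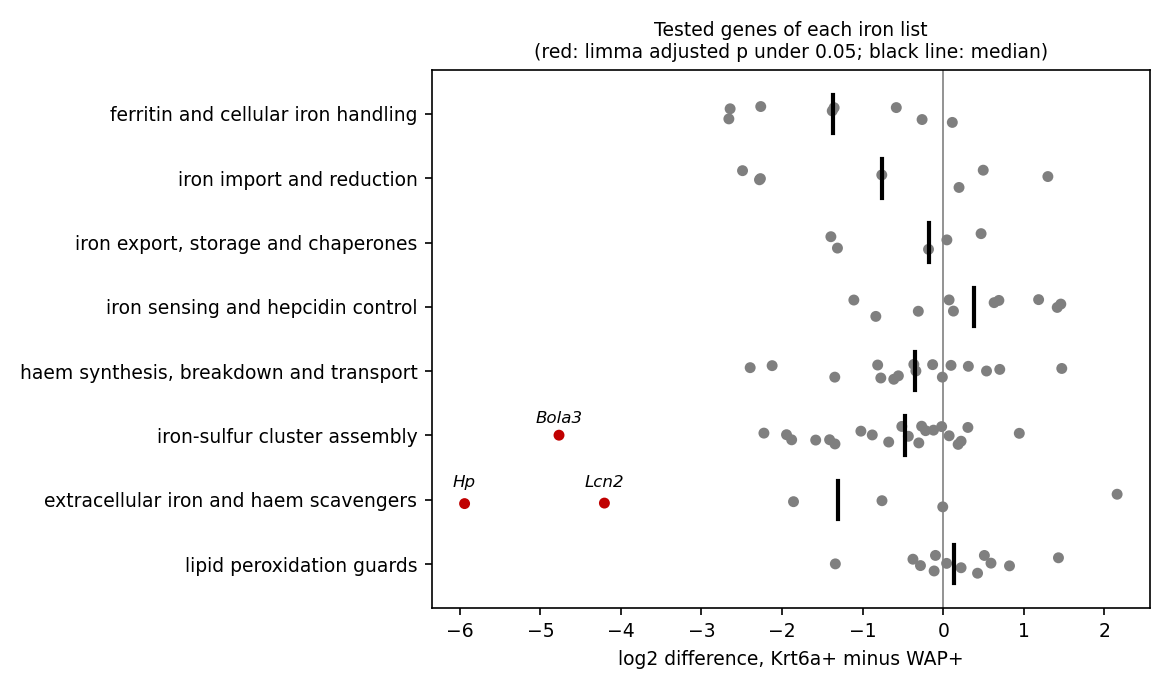
Log2 difference, Krt6a+ minus WAP+ (horizontal axis), of every tested gene in the ferritin and cellular iron handling set and 7 further lists, with the list median as a black line. Bola3, Hp and Lcn2, in red, are the 3 genes past the threshold, and the medians run from -1.37 for the ferritin and iron handling genes to 0.38 for iron sensing.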

How the data were processed

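RNA-seq tables of 2 Krt6a+ and 3 WAP+ libraries were used. The labels' protocols describe amplification of full-length cDNA from sorted cells, tagmentation and paired-end sequencing. TopHat, Cufflinks and mm10 are named in the submitters' processing notes, without versions. The kit does not mark strand, so a gene and its antisense partner may share reads. Per the file headers, the authors deposited FPKM with 95% bounds for each RefSeq transcript. The deposited coverage signal was not used in comparisons.

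FPKM was summed by symbol and divided by median-ratio factors (0.874 to 1.14, from 5334 genes with FPKM of at least 1 throughout). For the 9682 genes with FPKM of at least 1 in 2 or more libraries, log2(scaled FPKM + 1) was compared with limma 3.58.1 in R 4.3.3. Variances were moderated along their trend with the mean (4.87 prior degrees of freedom added to 3 residual), with two-sided p-values adjusted by Benjamini-Hochberg, with a threshold of 0.05. Folds on this scale are understated for low genes. The procedure was tested on simulated data. Low values were turned into fragment numbers with annotated transcript lengths and depths from interval widths, and 4.23% to 4.65% lay within 0.02 of a whole number. Both inputs are approximate, so this could not show whether the values follow whole fragments. No count model was run. Fragment numbers from interval widths assume that the widths reflect counting error only. The intervals of Fth1 were wider than that, as were those of Ftl1 to a lesser degree.

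The members and lists were chosen with earlier results of these data known. All 10 members are named, and from each further list the genes past the threshold and up to 3 with the largest absolute moderated statistic. Others are said to be named after their values were seen. Alternatives varied the pseudocount, filter, scaling, length trend, rows per symbol, variance model and replicate block, and left out each library.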

Additional observations from a re-analysis of the deposited data

How the results depend on the processing

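Fth1, Ftl1, Trf, Tfrc and Slc11a2 kept a negative difference under all 16 alternatives. Leaving out each library in turn, Ireb2 ran from -0.55 to 0.19 (without WAP+ library 2), Aco1 from -2.12 to 0.99 (without Krt6a+ library 2), Ncoa4 from -0.31 (without Krt6a+ library 3) to 0.58, with -0.28 without WAP+ library 1, Pcbp3 from -0.29 (without Krt6a+ library 3) to 1.24, with -0.10 without WAP+ library 2, and Gpx4 from -3.02 to 0.36 (without Krt6a+ library 3). Ncoa4 was also -0.060 with the length trend removed, -0.0098 with the highest row per symbol and -0.27 with a replicate block. The members past the threshold on the lower side numbered 1 with genes above 0 in all libraries and 0 to 2 with each library left out, and their median ran from -2.10 to -0.84. Of the further lists, 1 gene was higher with the stricter filter and 1 with genes above 0 in all libraries. On the lower side 1 passed among unfiltered genes, 1 under a constant prior variance, and 1 to 5 with each library left out. Over all genes, 25 were higher, and 6 with a pseudocount of 0.1, 41 with 5, 2 with no filter, 71 with the stricter filter, 76 with genes above 0 in all libraries, 39 with quantile normalization, 64 with the length trend removed, 7 under a constant prior variance, and 2 to 44 with each library left out. Of 42 lower genes the counts were 20 with a pseudocount of 0.1, 3 with no filter, 92 with the stricter filter, 91 with genes above 0 in all libraries, 27 with no scaling factor, 9 under a constant prior variance, and 3 to 103 with each library left out. The cause of these shifts was not tested.

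With the replicate number as a block, 15 genes were higher and 19 lower. Libraries of the same number deviated from their group means with correlations of 0.0495 (number 2) and 3e-04 (number 3) over 9682 genes. The deviations of the 2 Krt6a+ libraries from their mean mirror each other, so the correlations can hardly show pairing either way. The numbers are therefore not shown to pair the samples. With 1 Krt6a+ library left, its spread is assumed to be that of the WAP+ libraries. Genes under about 20 fragments in a library, such as Slc11a2 and Aco1 in Krt6a+ library 2, are limited by depth.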
